A study of Mus musculus with 8 samples.

Results

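Serotonin receptor RNA was described in the hippocampus of mice with 1 disrupted copy of Nr2f1 and of their wild-type (WT) counterparts. The 10 genes, Htr1a, Htr1b, Htr1d, Htr2a, Htr2c, Htr3a, Htr4, Htr5a, Htr5b and Htr7, were chosen by symbol from a list drawn up with the levels and genotype differences of these same libraries already known. They are 10 of the 37310 genes in the count table, and 9 of them were among the 17913 genes with enough reads for the comparison of genotypes; Htr1d was not. The other 4 serotonin receptor genes in the table, Htr1f, Htr2b, Htr3b and Htr6, are given beside them. Since the choice of the 10 genes used the genotype contrast, their differences are descriptions and support nothing further.

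There were 4 libraries labelled Nr2f1 het and 4 labelled WT, each from the hippocampus of a separate B6.129 F1 hybrid mouse aged 3 months and labelled male. How the Nr2f1 allele was made is not stated in the labels. The whole hippocampus was extracted, so each value is an average over neurons, glia, vessels and any attached tissue.

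Serotonin is released in the hippocampus by axons whose cell bodies lie in the raphe nuclei of the brainstem, and acts on a family of receptors that signal in different ways. The 5-HT1 receptors couple to Gi/o proteins, which lower cAMP and open potassium channels. The 5-HT2 receptors couple to Gq and phospholipase C, the 5-HT4, 5-HT6 and 5-HT7 receptors couple to Gs and raise cAMP, and the 5-HT3 receptor is a cation channel opened by serotonin itself. Hippocampal pyramidal and granule neurons are known for dense 5-HT1A receptors, a group of interneurons for 5-HT3A, and the epithelium of the choroid plexus for dense 5-HT2C receptors.

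Total gene counts ran from 58717305 to 90043971 per library. Levels are given in CPM, a depth-scaled read count, on TMM-scaled library sizes; 3 counts, the most that a count of 0 allows, corresponded to 0.0332 to 0.051 CPM by library, for counting error only. Nr2f1 itself was at 31.3 ± 2.16 CPM in heterozygotes and 52.2 ± 2.07 CPM in WT (SD, n = 4 each), or 60.1% of WT, with no overlap between the genotypes. The libraries went against the label of sex: Xist ran from 463.2 to 601.4 CPM over the 8 libraries and the 14 Y-linked genes held 3 counts in all (Htr2c is X-linked). Odd-numbered and even-numbered libraries differed in the make-up of their spike-ins, seen in the ratio of ERCC-00130 to ERCC-00002 (1.2 to 1.28 against 0.165 to 0.186). Markers of the choroid plexus stood apart: their summed level over 12 genes was 85.77, 1466, 452.9 and 2143 CPM in WT libraries 1 to 4, and between 4161 and 4696 CPM in heterozygotes. WT libraries 1 and 3 were therefore also left out together as an alternative.

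Per unit of length, Htr1a was the leading serotonin receptor RNA of the WT hippocampus. The order is on the scale of CPM per kilobase of exon, with lengths from GENCODE gene models, and each value is a level. Htr1a stood at 12.1 ± 0.609 CPM per kilobase in WT (SD, n = 4), and its lowest WT library (11.2) lay above the highest WT value of Htr2c (4.76). Htr2c followed at 3.67 ± 0.897, Htr5b at 3.61 ± 0.548, Htr5a at 3.41 ± 0.282, Htr4 at 3.11 ± 0.232, Htr7 at 3.09 ± 0.367 and Htr3a at 2.88 ± 0.398 CPM per kilobase in WT (SD, n = 4 each). Each neighbouring pair from Htr2c down to Htr3a overlapped between WT libraries, as did Htr3a and Htr6 (2.38 ± 0.193), so the order within that run is not resolved. Below them, and with no overlap with the gene above, came Htr2a at 2.03 ± 0.178 and Htr1f at 0.745 ± 0.0886 CPM per kilobase in WT. Htr1b was lower still at 0.23 ± 0.0281, and Htr2b (0.0413), Htr1d (0.0127) and Htr3b (0.00633 CPM per kilobase) were close to the limit of detection.

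**Figure D1:**
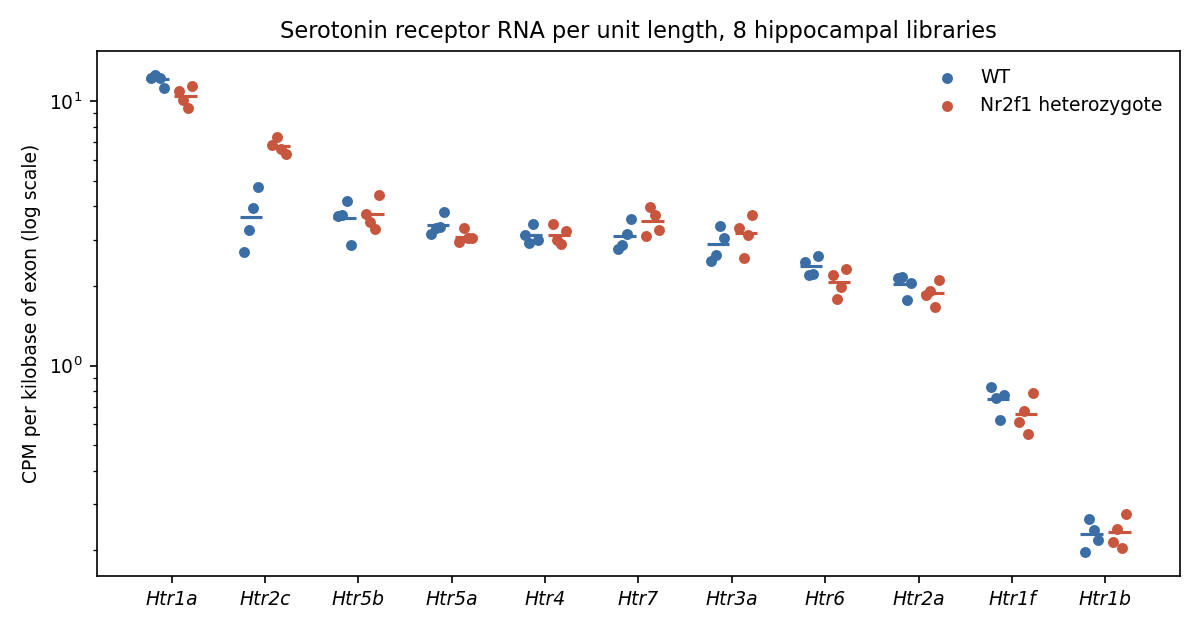
Level of the 11 serotonin receptor genes tested, in CPM per kilobase of exon on a log axis, with 1 point per library and a bar at the mean of each genotype. Htr1a lies above every other gene in every library, and Htr2c is the only one of the 11 whose WT and heterozygote points do not overlap.

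Of the 9 members tested, 1 passed an edgeR adjusted p of 0.05 in the fit over all genes, namely Htr2c, and 8 did not. Of all genes tested 2.99% passed, and as the choice of members used this contrast, nothing is read from the count. The log2 fold changes of heterozygotes over WT were above 0 for 6 members and below 0 for 3, with a median of 0.023 against -0.0056 over all genes tested. They ran from -0.21 for Htr1a to 0.88 for Htr2c. The genotypes did not overlap for 1 of the 9 members, again Htr2c, where 10.6% of all genes tested did not overlap. In bulk tissue, fewer cells of a type and less RNA per cell cannot be told apart.

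**Figure D2:**
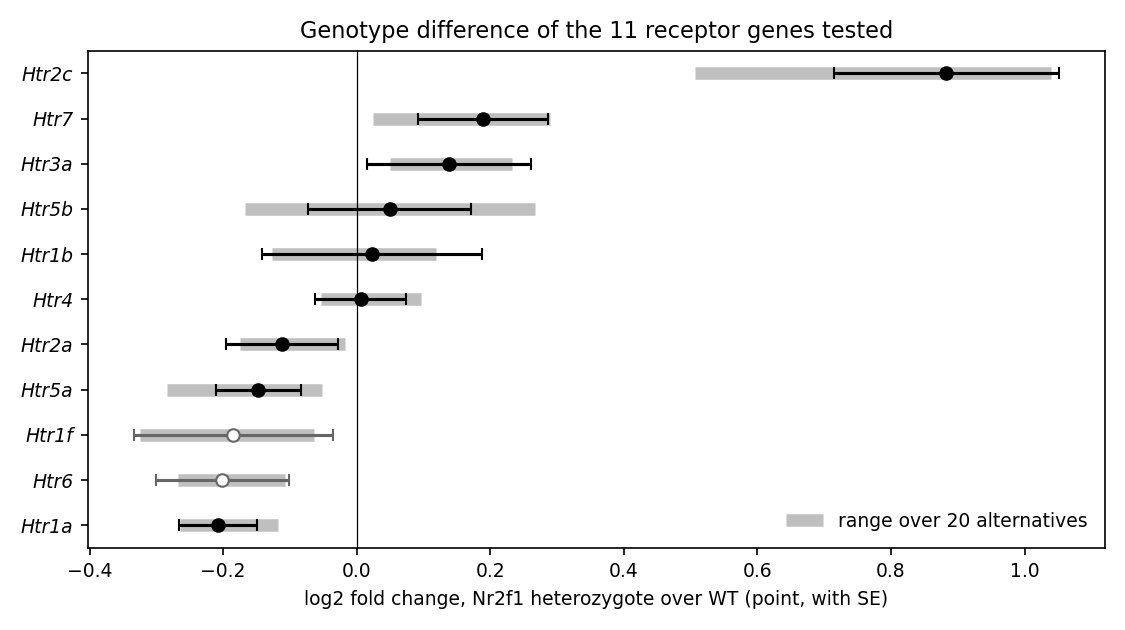
Log2 fold change of heterozygotes over WT for the 11 receptor genes tested, as a point with its standard error (filled for the listed members, open for Htr1f and Htr6); grey bars span the 20 alternative settings. Htr2c stands at 0.88, and every other point lies between -0.21 and 0.19.

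Among the Gq-coupled receptors, Htr2c (ENSMUSG00000041380.6, chromosome X) was higher in heterozygotes, while Htr2a overlapped between the genotypes. Htr2c was at 25.06, 30.36, 36.97 and 44.41 CPM in WT libraries 1 to 4. In heterozygote libraries 1 to 4 it was at 63.74, 68.49, 61.73 and 58.88 CPM. Every heterozygote library lay above every WT library, the lowest at 1.33 times the highest WT value, and the WT libraries spread more widely, with the highest at 1.77 times the lowest against 1.16 times among heterozygotes. The means were 63.2 ± 4.04 and 34.2 ± 8.37 CPM (SD, n = 4 each), a log2 fold change of 0.88 (SE 0.168) or 1.84-fold (edgeR adjusted p = 0.0455). The direction held in all 20 alternatives, where the value ran from 0.51 to 1.04, and the call held in 7 of them.

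With 1 library left out, the Htr2c value stayed between 0.76 and 1.04. Its SE was 0.168 with all libraries and 0.191 to 0.199 without 1 of the heterozygote libraries. The call lay close to the threshold and was lost in most of these fits. It held without WT library 1 (log2 fold change 0.76, edgeR adjusted p = 0.034) and without WT library 4 (1.04, edgeR adjusted p = 0.00517). It was lost without WT library 2 or 3 (0.84 and 0.92, edgeR adjusted p = 0.098 and 0.115) and without heterozygote library 1, 2, 3 or 4 (0.88, 0.84, 0.90 and 0.91, edgeR adjusted p = 0.0986, 0.101, 0.114 and 0.0927). Without WT libraries 1 and 3 together the value was 0.75 (edgeR adjusted p = 0.134). With 2 libraries per genotype, it was 1.02 within odd-numbered libraries (edgeR adjusted p = 0.135) and 0.77 within even-numbered ones (edgeR adjusted p = 0.523). Without the filter on low counts it was 0.88 (edgeR adjusted p = 0.0817). The spread of Htr2c between libraries of a genotype, as the coefficient of variation from the fit, was 16.9%, where the trend for genes of its level was 5.59%.

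Choroid plexus markers were higher in heterozygotes, as Htr2c was. Their summed level put the 8 libraries in the order of Htr2c, except that WT libraries 2 and 3 changed places. Single markers did not all keep that order. All 12 genes of that list were higher in every heterozygote library than in any WT library, with a median log2 fold change of 1.83; 0 of the 12 passed in edgeR, 11 had an unadjusted p under 0.05 and 4 passed in DESeq2. Ttr, the transthyretin gene, abundant in choroid plexus, was at 44.94, 1280, 373.7 and 1884 CPM in WT libraries 1 to 4. Its values in heterozygote libraries 1 to 4 were 3831, 4201, 3812 and 3698 CPM. Within WT, Ttr spanned 41.9-fold and Htr2c 1.77-fold between the highest and lowest library. WT library 1 was the lowest of the 8 for both, and WT library 4 the highest of WT for both. WT libraries 2 and 3 stood in opposite order, with Htr2c at 30.36 and 36.97 CPM and Ttr at 1280 and 373.7 CPM. The heterozygote libraries stood in the same order for both genes, with library 2 highest, then 1, 3 and 4. Htr2c was at 63.74, 68.49, 61.73 and 58.88 CPM in heterozygote libraries 1 to 4. When the mean log2 CPM of the 12 markers entered the fit as a covariate, the Htr2c difference was 0.51 on the log2 scale (SE 0.18, edgeR adjusted p = 0.697). The genotype and the score overlap in what they separate, so how much of the Htr2c difference goes with attached choroid plexus cannot be told apart from genotype in these libraries.

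**Figure D3:**
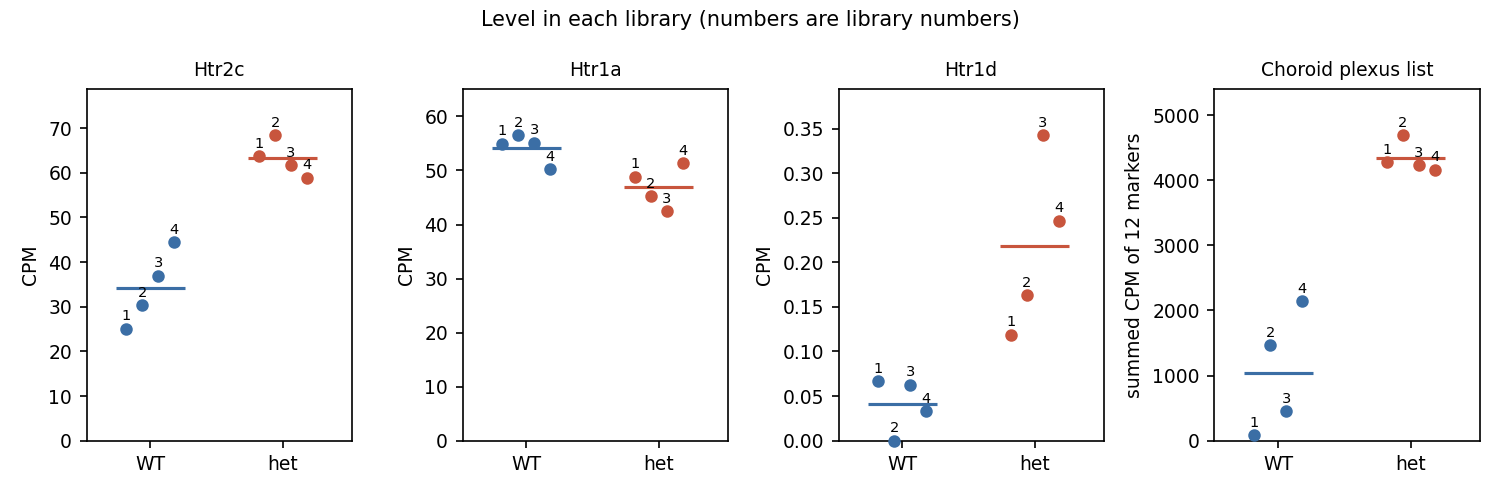
CPM of Htr2c, Htr1a and Htr1d and summed CPM of 12 choroid plexus markers in each library, on linear axes from 0, with points numbered by library and a bar at the genotype mean. Htr2c, Htr1d and the choroid plexus list are higher in all 4 heterozygote libraries than in any WT library, and Htr1a overlaps at WT library 4 (50.30 CPM).

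Other tissue markers that could travel with a dissection also differed. The 6 ependymal markers, genes of the ciliated lining of the ventricles, summed to 10.38 to 20.73 CPM in WT and 29.82 to 45.27 CPM in heterozygotes, and 4 of the 6 passed as higher. The 10 striatal markers summed to 198.3 to 214.4 CPM in WT and 215.4 to 331.1 CPM in heterozygotes. In edgeR 2 passed as higher, Ppp1r1b and the transcription factor gene Six3. Of the 10, 7 were higher with no overlap, where 10.6% of all genes tested did not overlap. In edgeR 7 had an unadjusted p under 0.05, and 6 passed in DESeq2. For thalamus and habenula, the summed ranges of the 10 markers overlapped (160.7 to 199.5 CPM in WT, 177.3 to 219.1 CPM in heterozygotes). Of the 8 tested, 1 passed in edgeR as higher, Prkcd, and 3 were higher with no overlap. In edgeR 5 had an unadjusted p under 0.05, in both directions, and 3 passed in DESeq2. The habenular gene Pou4f1 was near 0. Meningeal markers, 8 genes, summed to 97.55 to 243.5 CPM in WT and 326.9 to 387.3 CPM in heterozygotes; 0 of the 8 passed in edgeR, 5 had an unadjusted p under 0.05 and 4 passed in DESeq2. The part of these tissues in the receptor values was not tested.

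The promoter windows of Htr2c and Htr1a are printed because Htr2c had the largest difference of the 9 members in the fit and Htr1a the highest level per length. Both are the 250 bases before the RefSeq start site on GRCm38.p6, plus strand, 5′ to 3′; the counts themselves were made on another build. Capitals mark a match to AGGTCA, the half-site recognised by nuclear receptors of the COUP-TF family to which Nr2f1 belongs, or to its reverse complement.
Htr2c, chrX:146962263-146962512: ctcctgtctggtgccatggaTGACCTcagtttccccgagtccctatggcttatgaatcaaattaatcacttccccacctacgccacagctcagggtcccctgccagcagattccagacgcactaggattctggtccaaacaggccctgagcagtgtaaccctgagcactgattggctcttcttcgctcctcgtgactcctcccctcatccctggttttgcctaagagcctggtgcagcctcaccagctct
Htr1a, chr13:105443443-105443692: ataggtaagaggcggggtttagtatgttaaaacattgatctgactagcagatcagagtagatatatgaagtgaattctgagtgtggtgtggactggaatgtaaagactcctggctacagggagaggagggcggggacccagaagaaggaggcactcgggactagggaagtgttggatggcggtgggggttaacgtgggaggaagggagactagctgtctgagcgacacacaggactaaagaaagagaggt

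The Htr2c window held 1 match, on the minus strand 230 bases before the start site, and the Htr1a window held none. Over windows of 300 bases, from 250 before to 50 after a start site and on both strands, 16.3% of the 32851 promoters in the RefSeq table held at least 1 match. Of the 7 listed members with a window searched, 1 held a match, against 18.1% of all genes. No window was searched for Htr3a and Htr5b, which had no entry, or for Htr4, as receptor windows on chromosome 18 were left out. Such a match is a run of letters and not a binding site, and these libraries measure no binding.

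Htr2a, the other Gq-coupled member, was at 12.02, 12.11, 9.951 and 11.51 CPM in WT libraries 1 to 4. The heterozygote values were 10.33, 10.72, 9.359 and 11.83 CPM in the same order, and the genotypes overlapped. Its log2 fold change was -0.11 (SE 0.0836), with a 95% interval of -0.275 to 0.052. Htr2b, the remaining gene of the subfamily, had 29 counts in WT and 43 in heterozygotes over 4 libraries each. That ratio of 1.59 has an exact binomial 95% interval of 0.967 to 2.63 for counting error alone, so no difference was detectable at this depth. Exons of Htr2b overlap those of Psmd1 on the opposite strand by 252 bases, and without strand the reads of both cannot be told apart there.

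Among the Gi/o-coupled receptors, Htr1a (ENSMUSG00000021721.4, chromosome 13) was lower in heterozygotes by a small amount that did not pass the test. It was at 54.98, 56.59, 55.13 and 50.30 CPM in WT libraries 1 to 4. In heterozygote libraries 1 to 4 it was at 48.87, 45.30, 42.45 and 51.37 CPM. WT library 4 and heterozygote library 4 crossed over, and the other 3 libraries of each genotype did not overlap. The heterozygote mean of 47.0 ± 3.93 CPM was 86.6% of the WT mean of 54.3 ± 2.73 CPM (SD, n = 4 each), a log2 fold change of -0.21 (SE 0.0584, edgeR adjusted p = 0.0792). The value stayed below 0 in all 20 alternatives, from -0.26 to -0.12. It passed in 3 of them, the DESeq2 Wald test (adjusted p = 0.029), without heterozygote library 4 (edgeR adjusted p = 0.0498) and without WT library 4 (edgeR adjusted p = 0.0442). Of 9 markers of hippocampal neurons tested, 2 were lower in heterozygotes with no overlap, Wfs1 (286 against 338 CPM) and Mpped1 (228 against 260 CPM). The other 7 did not pass and lay on both sides of 0, with log2 fold changes from -0.30 to 0.094. The median over the list was -0.038. Its summed level ran from 915.0 to 993.7 CPM in WT and from 804.9 to 923.9 CPM among heterozygotes. The part of these markers in the Htr1a values was not tested. Nr2f1 lies on the same chromosome as Htr1a; the strain origin of the chromosome was not measured.

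Htr1d, another Gi/o-coupled receptor gene, lay near the limit of detection and was left out of the fit by the filter on low counts. It had 5, 0, 5 and 3 counts in WT libraries 1 to 4. In heterozygote libraries 1 to 4 it had 7, 13, 31 and 20 counts. In CPM, heterozygotes ran from 0.1189 to 0.3429 and WT libraries from 0 to 0.06664, with no overlap. The sums of 71 and 13 counts give 5.84-fold per effective library size, with an exact binomial 95% interval of 3.21 to 11.5 that covers counting error only and not the spread between animals. Htr1d was tested in 9 of the alternatives and passed in 3 of these, with log2 fold changes from 2.08 to 3.63 over the 9. Without the low-count filter the value was 2.49 (edgeR adjusted p = 0.0268), and with DESeq2, also run without that filter, it was 2.46 (adjusted p = 0.0114). The third was the fit without heterozygote library 1 (2.66, edgeR adjusted p = 0.0383). A gene so low passes a filter mainly through the group where it is high.

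Htr1b, an autoreceptor of serotonin axon terminals that is also made by local neurons, was at 0.933 to 1.244 CPM in WT and 0.9624 to 1.295 CPM in heterozygotes. Its log2 fold change of 0.023 (SE 0.165) had a 95% interval of -0.3 to 0.347, and the sign turned in 5 of the 20 alternatives. Its exons overlap an antisense gene, D430036J16Rik, by 852 bases, and with a kit that does not mark strand the reads of both cannot be told apart. Htr1f was at 1.92 ± 0.228 CPM in WT and 1.69 ± 0.263 CPM in heterozygotes (SD, n = 4 each), also with overlap.

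Of the 5-HT5 receptor genes, Htr5a was at 16.94, 17.86, 17.98 and 20.48 CPM in WT libraries 1 to 4. Heterozygotes had 15.82, 17.77, 16.28 and 16.31 CPM in that order. Of the heterozygote libraries 3 lay below all WT libraries and library 2 did not, and the log2 fold change was -0.15 (SE 0.0639, edgeR adjusted p = 0.259). Without WT library 4 it was -0.080, with spike-in scaling -0.053 and with the choroid plexus covariate -0.28 (edgeR adjusted p = 0.561, 1.0 and 0.545). Its paralog Htr5b was at 5.551 to 8.109 CPM in WT and 6.35 to 8.535 CPM in heterozygotes, with a log2 fold change of 0.049 and a 95% interval of -0.189 to 0.287. The sign for Htr5b turned between odd-numbered (-0.17) and even-numbered libraries (0.27).

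None of the 3 Gs-coupled receptor genes passed the test, with 0 of 3 at an unadjusted p under 0.05 in edgeR and 0 of 3 passing in DESeq2. Htr7 was at 9.37, 9.747, 10.69 and 12.17 CPM in WT libraries 1 to 4. Its heterozygote values were 10.50, 13.48, 12.68 and 11.08 CPM. The ranges overlapped from 10.50 to 12.17 CPM, with 2 heterozygote libraries above the highest WT library, and the log2 fold change was 0.19 (SE 0.0971, edgeR adjusted p = 0.35). With the choroid plexus covariate the Htr7 value was 0.024 (SE 0.137, edgeR adjusted p = 0.987), and with spike-in scaling 0.29 (SE 0.264, edgeR adjusted p = 1.0). Htr4, whose log2 fold change was the nearest to 0 of the 9 members tested, was at 14.30 to 16.87 CPM in WT and 14.18 to 16.79 CPM in heterozygotes, a difference of 0.0058 on the log2 scale with a 95% interval of -0.128 to 0.14. Htr6 was at 5.56 ± 0.451 CPM in WT and 4.86 ± 0.551 CPM in heterozygotes (SD, n = 4 each), at -0.20 on the log2 scale (edgeR adjusted p = 0.326).

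Htr3a encodes the subunit that every 5-HT3 channel needs. It was at 5.198, 5.449, 7.006 and 6.318 CPM in WT libraries 1 to 4. The heterozygotes stood at 6.933, 5.317, 6.505 and 7.709 CPM, and the genotypes overlapped. Its log2 fold change was 0.14 (SE 0.123), with a 95% interval of -0.102 to 0.379. Htr3b, which encodes an accessory subunit, had 5 counts in WT and 3 in heterozygotes over all libraries, at or under the floor in each. In the list of 10 markers of interneurons of the caudal ganglionic eminence, the class that carries Htr3a, summed levels overlapped (812.3 to 860.2 CPM in WT, 831.8 to 889.5 CPM in heterozygotes). Of the 10, 1 passed in edgeR, Calb2, at 1.41-fold, and 3 passed in DESeq2. Nr2f2 and Sp8 were also higher in every heterozygote library than in any WT library (log2 fold changes of 0.77 and 0.63, edgeR adjusted p = 0.0778 and 0.0811). The other markers overlapped between the genotypes, from -0.082 to 0.15 on the same scale, with Vip at -0.052. The median of the list was -0.012. The part of these markers in the Htr3a values was not tested.

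The make-up of receptor RNA per unit of length shifted between the genotypes, with Htr2c and Htr1d shares higher and Htr1a, Htr5a and Htr6 shares lower in every heterozygote library than in any WT library; no test was run on shares. Htr2c made up 9.79% ± 2.16 of the summed level of the 14 genes in WT and 17.5% ± 1.57 in heterozygotes (SD, n = 4 each). Htr1a made up 32.5% ± 2.27 in WT and 26.9% ± 1.06 in heterozygotes (SD, n = 4 each). Shares are bound to each other, so a larger share of one gene lowers the rest. In CPM, Htr1a, Htr5a and Htr6 overlapped between the genotypes, and Htr1d had 0 to 5 counts in each WT library. The sum of the 14 was 37.3 ± 1.24 CPM per kilobase in WT and 38.9 ± 1.82 in heterozygotes, and without Htr2c it was 33.6 ± 0.713 and 32.1 ± 2.03 (SD, n = 4 each), with overlap between genotypes in both sums.

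**Figure D4:**
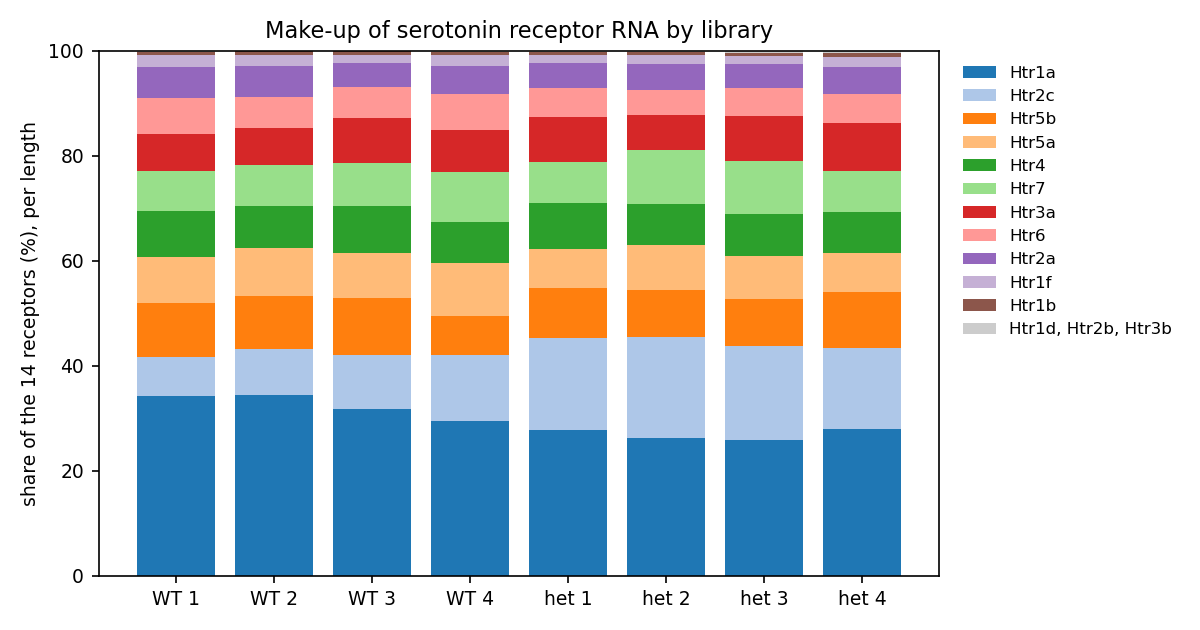
Share of each receptor gene in the summed CPM per kilobase of the 14 genes, as stacked bars from 0 to 100% for each library. The Htr2c segment covers 7.49% to 12.5% of the WT bars and 15.4% to 19.1% of the heterozygote bars, and the Htr1a segment 29.5% to 34.4% and 25.8% to 27.9%.

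Gene structure, which played no part in the choice, divides the family. The coding sequence of Htr1a, Htr1b, Htr1d and Htr1f lies in 1 exon each in GENCODE. Htr5a and Htr5b have 2 coding exons, Htr2a, Htr2b and Htr6 have 3, Htr2c and Htr7 have 4, Htr4 has 6, and Htr3a and Htr3b have 9. Htr2c has the longest exons in total, 9328 bases for a coding length of 1377 bases, which is why levels are compared between genes only per kilobase.

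The genes whose profile over the 8 libraries was nearest to a member were found among 13196 other genes of at least 1 CPM. Distance is the root mean square difference of log2 CPM, each gene centred on its own mean, and it is a description of these libraries. Nearest to Htr2c were Fbln1 and Car12, both at 0.114, and Dab2 at 0.123, where Htr2c lay 0.51 from its own mean. Car12, a carbonic anhydrase gene, was at 38.09, 45.83, 48.09 and 56.25 CPM in WT libraries 1 to 4 and 80.66 to 83.90 CPM in heterozygotes. Nearest to Htr1a was Kcnd2, a potassium channel gene, at 0.0234, followed by Prag1 at 0.0422 and the calcium pump gene Atp2b1 at 0.0424, where Htr1a lay 0.136 from its own mean. Nearest to Htr5a were Edil3 at 0.0346, Fam151b at 0.0369 and Arhgap26 at 0.0405.

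Among genes that make, carry and break down serotonin, 1 of the 12 tested was higher and 0 lower. Slc29a4, which encodes a plasma membrane monoamine transporter, rose from 37.7 ± 1.46 to 47.5 ± 2.55 CPM (SD, n = 4 each), with no overlap and a log2 fold change of 0.33 (SE 0.046, edgeR adjusted p = 0.00484). It passed in 17 of the 20 alternatives, and not with spike-in scaling, within even-numbered libraries or with the choroid plexus covariate; over all 20 its log2 fold change ran from 0.30 to 0.43. The rate-limiting enzyme gene of neuronal serotonin synthesis, Tph2, was at 0.606 ± 0.173 CPM in WT and 0.893 ± 0.2 CPM in heterozygotes (SD, n = 4 each), with overlap (edgeR adjusted p = 0.273). The serotonin transporter gene Slc6a4 was at 0.0572 CPM in WT and 0.0799 CPM in heterozygotes, and the raphe transcription factor gene Fev was at or under the floor in all 8 libraries. Maob, a monoamine oxidase gene, had a log2 fold change of 0.26 (edgeR adjusted p = 0.0746), and Maoa one of -0.0015.

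Of the 9 genes for receptor partners and RNA editing enzymes, 0 passed in edgeR and 0 in DESeq2, with 0 at an unadjusted p under 0.05. The editing enzymes act on Htr2c transcripts. Adar was at 196.2 to 202.2 CPM in WT and 185.6 to 195.3 CPM in heterozygotes, with no overlap. Its log2 fold change was -0.056 (edgeR adjusted p = 0.37). Adarb1 overlapped between the genotypes and had a log2 fold change of 0.0039. Mpdz, which encodes a scaffold protein that binds the 5-HT2C receptor, had one of 0.088 with overlap between the genotypes. In the Gi/o list 1 of 12 was lower, Kcnj3, a subunit of the potassium channel that Gi/o-coupled receptors open, at 106 ± 5.64 against 121 ± 5.32 CPM (SD, n = 4 each; edgeR adjusted p = 0.0354). In the Gq list 1 of 17 was higher, the phospholipase gene Plcb3, at 21.8 ± 0.891 against 19.1 ± 0.357 CPM (SD, n = 4 each; edgeR adjusted p = 0.0371). In the Gs list 1 of 20 was lower, Rapgef4, which encodes a cAMP-activated exchange factor, at 392 ± 18 against 444 ± 8.33 CPM (SD, n = 4 each; edgeR adjusted p = 0.0228). These lists had median log2 fold changes of -0.066, -0.056 and -0.057, beside -0.0056 over all genes tested. Rapgef4, Kcnj3 and Plcb3 passed in 9, 8 and 8 of the 20 alternatives and kept their sign in all of them; without heterozygote library 4, WT library 1 or WT library 3 none of the 3 passed.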

How the data were processed

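The authors deposited raw read counts per Ensembl gene for 8 libraries, with 92 spike-in rows. The submitters' processing notes name STAR 2.4.2a, HTSeq, FastQC and DESeq2, and as builds mm9 and NCBIM37; the settings, annotation and strand option were not stated. Spike-in rows, 0.0431% to 0.0787% of a library's counts, stayed out of library sizes and tests. Symbols from a GENCODE table (GRCm38) matched 32620 of the 37310 gene identifiers; exon lengths came from GENCODE M21, which may differ from the annotation counted.

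Counts were scaled by TMM and filtered with filterByExpr (minimum count 10, total 15). The comparison of genotypes used edgeR 4.0.16 in R 4.3.3 (quasi-likelihood F test, robust, two-sided), with p adjusted by Benjamini-Hochberg over all 17913 genes and called under 0.05. A standard error (SE) is the size of the log2 fold change over the square root of F. The 95% intervals of log2 fold changes are nominal, 1.96 standard errors on each side. They are narrower than the F test implies. For Htr6 the interval was -0.395 to -0.007, at an unadjusted edgeR p of 0.0645. The profile distance used log2 of CPM plus 0.05. DESeq2 1.42.0 and limma 3.58.1 gave alternatives. The fit was tested on simulated counts.

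All members and the other 4 receptor genes are named; from each other pathway list, every gene past the threshold (at most 4), or otherwise the 2 with the lowest p. Marker lists are given by their summed level, with single markers named only beside a member. Genes named outside this rule were chosen after their values were seen (Tph2, Slc6a4, Fev, Maob, Maoa, Adarb1, Vip, Calb2, Nr2f2, Sp8, Ttr, Six3, Ppp1r1b, Pou4f1, Prkcd, Wfs1, Mpped1). Members, lists and alternatives were chosen with earlier results of these data known.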

Additional observations from a re-analysis of the deposited data

How the results depend on the processing

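Over all genes 535 passed in the edgeR fit. The number was 1183 with the DESeq2 Wald test, 185 with spike-in scaling, 170 without WT libraries 1 and 3, 78 within even-numbered libraries and 1 with the choroid plexus covariate; with each library left out it ran from 171 to 767. Of the listed members 1 passed in edgeR, beside 535 of the 17913 genes tested. With the DESeq2 Wald test 1183 of 19318 genes tested passed, and 3 of the listed members did (Htr1a, Htr1d and Htr2c). The number was 0 in edgeR with spike-in scaling, without WT libraries 1 and 3, within odd-numbered or even-numbered libraries, with the replicate number as a block and with the choroid plexus covariate, where 1, 4, 2, 2, 3 and 2 members in that order had an unadjusted p under 0.05; with each library left out it ran from 0 to 2. The member that passed was not always Htr2c: it was Htr1d without the low-count filter or heterozygote library 1, and Htr1a without heterozygote library 4. Of the genes in the other receptor and pathway lists, 4 passed in edgeR. The number was 1 without WT libraries 1 and 3, 1 within odd-numbered libraries and 1 with the replicate block, and 0 with spike-in scaling, within even-numbered libraries and with the choroid plexus covariate (0, 9 and 6 at an unadjusted p under 0.05); with each library left out it ran from 1 to 5. Spike-in scaling moved the median log2 fold change of all genes from -0.0056 to 0.091, and relative to that median Htr2c was at 0.88 and Htr1a at -0.21. That scaling used total spike-in counts, whose share was 0.04314% to 0.04906% in odd-numbered and 0.07125% to 0.0787% in even-numbered libraries. It therefore adds this difference between odd-numbered and even-numbered libraries to the spread within each genotype. The source of that difference was not tested. Under it Nr2f1 itself did not pass (log2 fold change -0.638, SE 0.285, edgeR adjusted p = 0.897).

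The replicate numbers did not pair the samples: the deviations of same-numbered libraries from their genotype means correlated between -0.208 and 0.054 over 14232 genes, and 0 of the 4 heterozygote libraries correlated best with the WT library of its number. With that number as a block, Htr2c had a log2 fold change of 0.91 (edgeR adjusted p = 0.128). The signs of Htr1b, Htr4 and Htr5b turned in 5, 5 and 3 of the 20 alternatives, and the signs of the other 6 tested members in 0. Depth limits Htr1d, Htr2b and Htr3b, which lie near the floor of 3 counts.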

Other observations

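In 26 groups of 4 libraries (13 receptor genes above the floor, 2 genotypes) the most distant library was compared with the others by Dixon's gap ratio, and 0 passed the 95% critical value.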
